A study of Mus musculus with 6 samples.

Results

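The clustered protocadherins were measured in mouse cortical neurons 1 hour after the start of a brief NMDA stimulus. Members were the rows of the count table whose symbol names an isoform of the α, β or γ protocadherin cluster. The rule matched 24 of the 38293 rows, namely 22 β genes, 1 α row (Pcdha11) and 1 γ row (Pcdhgc4). All 24 passed the low-count filter and were among the 14642 genes tested.

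RNA was sequenced from 6 libraries of primary cortical neurons, taken from wild-type Swiss-Webster embryos at embryonic day 16 and kept until day 13 in vitro. In the 3 NMDA libraries the cultures had met 50 µM NMDA, an agonist of a class of ionotropic glutamate receptors, during 10 minutes and were lysed after 50 minutes in medium free of the drug. The 3 control libraries came from cultures labelled as untreated. The labels' protocols speak of 2 biological replicates where 3 samples are listed per group, and p-values then reflect only how much these libraries vary, some of which may be technical.

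Clustered protocadherins are cell-surface cadherins that neurons use as an identity code: each neuron switches on its own mixture of isoforms, and matching mixtures bind each other on touching membranes. In the α and γ clusters, each first exon carries its own promoter and its own extracellular region, and is spliced to a set of constant exons that encode a shared cytoplasmic end. The β genes each consist of a single large exon and have no constant exons. Promoter choice involves CTCF and cohesin, DNA methylation, and enhancers at the ends of the clusters, and the proteins act in dendrite self-avoidance, axon targeting and neuronal survival.

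The 3 clusters lie in tandem on the plus strand of chromosome 18 in GRCm38. In GENCODE M21 the α cluster spans 36930184 to 37187661, the β cluster 37264938 to 37524479 and the γ cluster 37661793 to 37841873. M21 gives the α cluster 14 isoform genes and the γ cluster 22. The identifiers of 13 α and 21 γ genes are higher than ENSMUSG00000097935, the highest identifier in the table, and the other isoforms were not analysed here as rows of their own. The α row carries ENSMUSG00000007440 (37005203 to 37187657) and the γ row ENSMUSG00000023036 (37815079 to 37841873).

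Both of these rows include constant exons. The constant exons make up 2860 of the 5359 exonic bases (53.4%) that M21 gives the α identifier, and 2116 of the 5596 (37.8%) that it gives the γ identifier. HTSeq by default drops a read that overlaps the exons of more than 1 gene, which removes constant-exon reads where every isoform is a gene of its own. No other row of this table shares those exons on the same strand in M21, so that loss would not occur here. The α and γ rows would instead collect constant-exon reads from all isoforms of their cluster, and their counts are given below as cluster-level values. No source used here gives the exon models behind the counts, so the share that comes from any single isoform, including the C-type isoform Pcdhgc4, could not be set. The α identifier is also named Pcdha11 in M21, but it starts next to RefSeq's Pcdha10 (37005320) and well before RefSeq's Pcdha11, which begins at 37010858. M21 lists the antisense genes Gm10545 and Gm10544 over the α cluster and Gm26672 over the γ cluster. These genes have rows of their own, with means of 9.83, 10.3 and 141 reads, beside 5563 for the α row and 9908 for the γ row. Gm26672 (37746559 to 37768242) lies outside the span of the γ row's identifier. The strand setting of the counting is not given, and the effect of these genes on the counts of the α and γ rows was not tested.

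The libraries held 15417234, 17787649 and 18606264 counts with NMDA and 19183999, 17860691 and 18395131 in controls. The 24 members took 0.101%, 0.108% and 0.123% of these with NMDA and 0.0918%, 0.0995% and 0.126% in controls. Libraries of a group differed from each other far beyond counting noise, by a chi-square per degree of freedom of 7.76 to 54.3. The stimulus was visible in the activity-induced genes that mark excited neurons. The transcription factor gene Fos stood at 116 ± 24.5 CPM with NMDA and 3.30 ± 0.573 CPM in controls, Npas4 at 64.2 ± 24.4 and 5.31 ± 1.19 CPM, and the synaptic gene Arc at 23.8 ± 9.11 and 3.79 ± 1.01 CPM (SD, n = 3 each). All 3 rose in edgeR's quasi-likelihood test, with adjusted p-values of 3.23e-06, 0.00324 and 0.00562.

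No member of any cluster passed an adjusted p of 0.05 after NMDA. This held for edgeR without a replicate block and with the replicate number as a block. The background was 63 genes (0.430% of those tested) without the block, 55 of them higher (0.376%) and 8 lower (0.0546%), and 2051 (14.0%) with it. The lowest adjusted p among the 24 members was 0.303 without the block and 0.0673 with it, both for Pcdhb16. At an unadjusted p below 0.05, 2 members were lower with NMDA without the block (Pcdhb16 and Pcdhb2), beside 8.47% of all genes tested that were lower by this rule. With the block 4 passed, namely these 2 and Pcdhb15, all lower, and the γ row, which was higher, beside 28.7% of all genes in either direction. DESeq2's Wald test called 0 members with or without a block, and in both fits 1 of the 24 had an unadjusted p below 0.05. The limma-voom fit likewise called 0, with 2 at an unadjusted p below 0.05.

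The α row showed no difference between the groups beyond its error. It held 306, 277 and 352 CPM with NMDA and 258, 294 and 375 CPM in controls. The library of replicate 3 was the highest in each group, and the ranges overlapped. The means were 312 ± 37.8 CPM with NMDA and 309 ± 60.0 CPM in controls (SD, n = 3 each). The fitted log2 fold change, NMDA over control, was 0.01 ± 0.14 (SE; 95% interval -0.31 to 0.34, adjusted p = 0.979). Within pairs of the same replicate number it was 0.02 with an interval of -0.15 to 0.19.

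The γ row held 526, 567 and 665 CPM with NMDA and 496, 468 and 595 CPM in controls. The NMDA library was above the control of its own number in all 3 pairs, by 0.08, 0.28 and 0.16 on the log2 scale, while the ranges of the groups overlapped. The means were 586 ± 71.4 CPM with NMDA and 520 ± 66.7 CPM in controls (SD, n = 3 each). The fitted log2 fold change was 0.17 ± 0.12 (SE; 95% interval -0.10 to 0.45, adjusted p = 0.575). With the replicate block it was 0.17 ± 0.08 (interval 0.01 to 0.34), and the adjusted p over all genes was 0.154. Without control replicate 3 the log2 ratio of mean CPM was 0.28, and without NMDA replicate 3 it was 0.088. Astrocytes also make γ-protocadherins, and the summed level of 10 astrocyte markers was higher with NMDA in the same 3 pairs, by 0.11, 0.38 and 0.33 on the log2 scale. Progenitor markers (0.14, 0.42 and 0.20), fibroblast and mural markers (0.34, 0.79 and 0.29) and inhibitory neuron markers (0.08, 0.12 and 0.15) were likewise higher in all 3 pairs. The part of these levels in the γ row's values was not tested.

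The 22 β genes summed to 211, 212 and 207 CPM with NMDA, against 199, 227 and 248 CPM in controls. The 3 NMDA libraries lay close together and inside the range of the controls, which differed more among themselves. The means were 210 ± 2.66 CPM with NMDA and 225 ± 24.5 CPM in controls, a ratio of 0.934. Within pairs the log2 differences were 0.08, -0.09 and -0.26, so replicate 1 went against the other pairs.

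**Figure D1:**
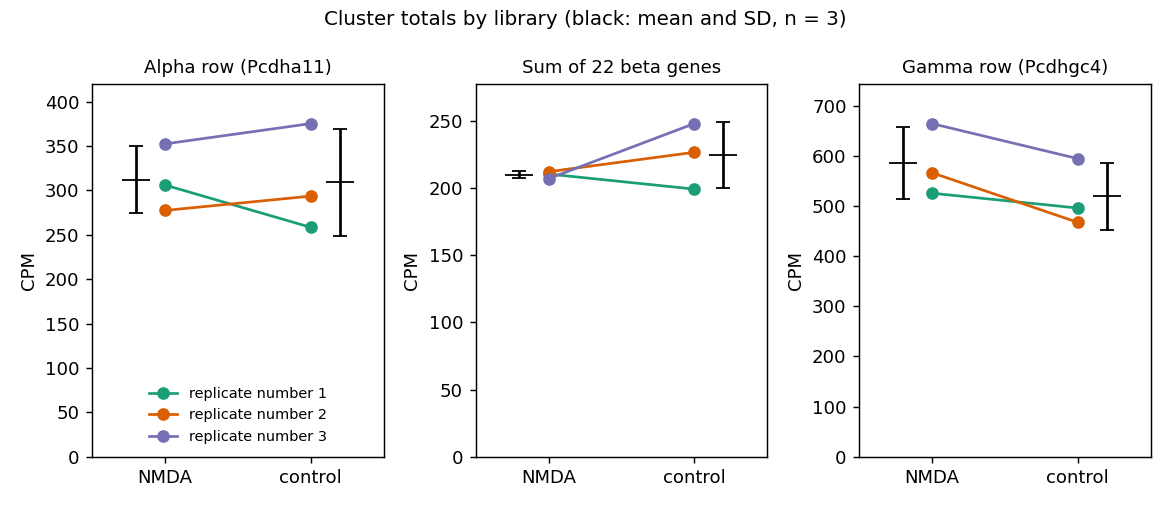
CPM of the α row, the sum of the 22 β genes and the γ row in each library, NMDA left and control right, with a linear axis from 0; coloured points are libraries joined by replicate number, and black bars give the mean and SD of 3 libraries. The γ row is higher with NMDA in every pair, the β sum is lower in 2 of 3 pairs, and the α row moves both ways.

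The γ row and the β sum were also set against each other within each library. The γ row was 2.50, 2.67 and 3.21 times the β sum with NMDA and 2.49, 2.06 and 2.40 times in controls. The groups did not overlap, though the lowest NMDA ratio and the highest control ratio differed only in the second decimal. The means were 2.79 ± 0.372 with NMDA and 2.32 ± 0.225 in controls (SD, n = 3 each). This is 1 of 3 such ratios, it was looked at with its parts known, and no test is given. The α row over the β sum averaged 1.49 ± 0.200 with NMDA and 1.37 ± 0.125 in controls, and the γ over the α row 1.88 ± 0.162 and 1.70 ± 0.191, both with overlap.

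Per kilobase the α and γ rows had higher group means than any single β gene under both lengths tried, by an amount that depends on the length. The α and γ rows are read as cluster-level values, so this sets whole clusters beside single genes. Divided by the exons of their own identifier, the α row averaged 58.2 ± 7.06 CPM per kb with NMDA and 57.7 ± 11.2 in controls, and the γ row 105 ± 12.8 and 92.8 ± 11.9. Divided by the union of all isoform exons of the cluster (40755 bases for α, 70891 for γ), the α row stood at 7.65 ± 0.929 and 7.58 ± 1.47 CPM per kb, and the γ row at 8.26 ± 1.01 and 7.33 ± 0.941. Neither length is the length of the transcripts present, so these values are alternatives and not bounds.

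Among the β genes the level per kilobase of exon shared with no other gene spanned 13.6-fold. Averaged over the 6 libraries it ran from 0.355 CPM per kb for Pcdhb1 to 4.84 for Pcdhb7, with a median of 2.39. Pcdhb7, Pcdhb9 and Pcdhb20 were the 3 highest. Pcdhb7 held 18.2, 15.8 and 16.4 CPM with NMDA and 14.95, 16.5 and 19.9 CPM in controls. Pcdhb9 held 12.7, 12.8 and 14.4 CPM with NMDA and 12.6, 14.8 and 19.5 CPM in controls. Pcdhb20 held 15.3, 16.2 and 15.8 CPM with NMDA and 12.2, 16.6 and 18.4 CPM in controls. For all 3 the groups overlapped, and fitted log2 fold changes were -0.03 ± 0.14, -0.23 ± 0.17 and 0.00 ± 0.15 (SE), with adjusted p-values of 0.949, 0.572 and 0.993.

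The lowest, Pcdhb1, the first gene of the β cluster, had 8, 10 and 20 reads with NMDA and 15, 26 and 21 in controls. At a mean of 16.7 reads, counting alone gives a coefficient of variation of 24.5%, against 4.85% for Pcdhb19 with a mean of 425 reads. Its fitted value, the most negative of the 24 at -0.62, had an interval from -1.52 to 0.28. The order of the 22 levels differed little between libraries: Spearman coefficients of CPM between any 2 of the 6 libraries lay between 0.93 and 0.99 over the 22 genes. Each gene has the same length and sequence in every library, which bears on this likeness.

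**Figure D2:**
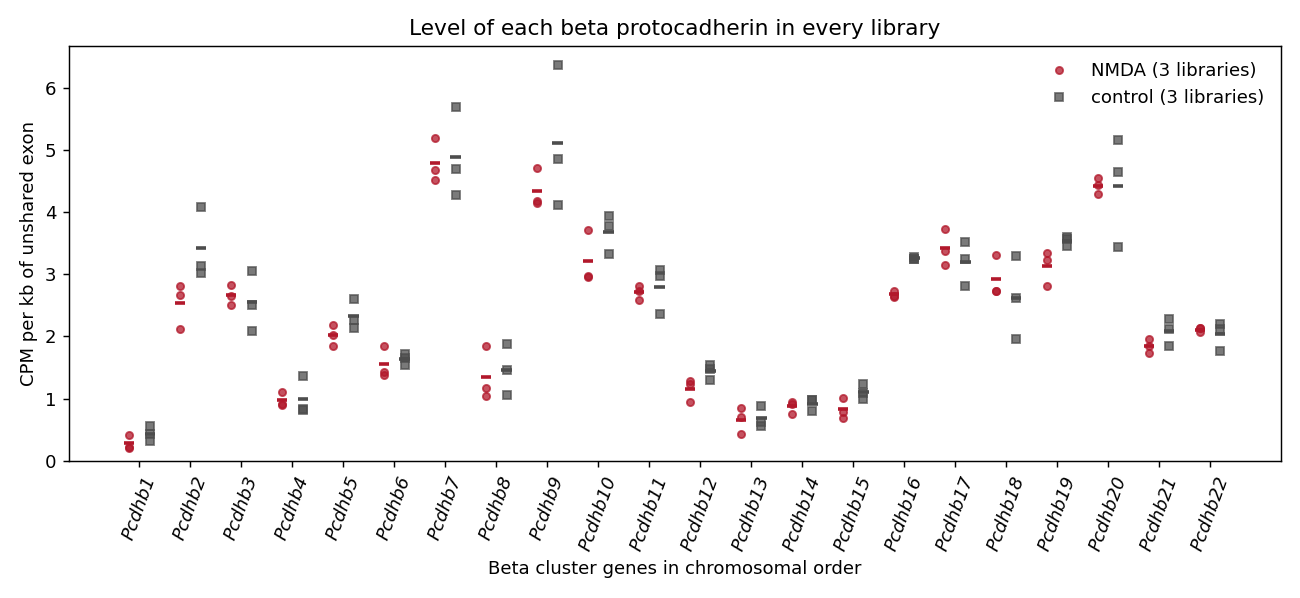
CPM per kb of unshared exon for each β gene in chromosomal order, NMDA libraries as red circles left of control libraries as grey squares, with bars at the group means of 3 libraries. Levels run from 0.355 for Pcdhb1 to 4.84 for Pcdhb7 as means over all libraries. This range across the genes exceeds the difference between the group means of any single gene, while many genes lie close to each other.

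A lower fitted value with NMDA was the more common direction in the β cluster. Of the 22 genes 17 had a log2 fold change below 0, beside 50.9% of all genes tested, and their median was -0.09, beside -0.0054 for all genes. The median SE of a single β gene was 0.16 and the median interval reached 0.366 to either side, so most single values lie well within their error. The 22 values come from the same 6 libraries and are not independent. The count of genes below 0 was 16 or 17 in 8 other settings, all of them fits of the same 6 libraries. The value of 16 came from the filter at 1 CPM, which dropped Pcdhb1. The count was 12 without NMDA replicate 3 or without control replicate 3 and 21 without control replicate 1. The median ranged from -0.17 to -0.03 over the 6 fits that leave out a library. Without control replicate 3, the library with the highest β sum, the median was -0.03.

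In 4 of the 22 β genes all NMDA libraries lay below all controls: Pcdhb2, Pcdhb12, Pcdhb16 and Pcdhb19. By the same rule NMDA lay below in 11.1% of all genes tested, and above in 8.18%, where no β gene fell. In 8 β genes NMDA was lower in every pair, beside 25.7% of all genes tested. In Pcdhb17 and Pcdhb18 it was higher in every pair, beside 22.5% of all genes, though the third pair of Pcdhb18 differed by only 0.0099 on the log2 scale.

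Pcdhb16 had the smallest p-value of the family in the default edgeR fit and with the replicate block, though not in every setting. It held 14.3, 13.9 and 13.8 CPM with NMDA and 17.2, 17.0 and 17.0 CPM in controls. The libraries of each group lay within a narrow band and the bands were well apart. The means were 14.0 ± 0.259 CPM with NMDA and 17.0 ± 0.118 CPM in controls (SD, n = 3 each). At a mean of 278 reads, counting alone gives a coefficient of variation of 5.998%. Both SDs are a smaller share of their mean than this, so the narrow bands do not measure how well the libraries repeat. The fitted log2 fold change was -0.28 ± 0.11 (SE; 95% interval -0.53 to -0.04, unadjusted p = 0.0266, adjusted p = 0.303, edgeR), and with the block the adjusted p was 0.0673. The SE draws on the spread of other genes of similar abundance as well as on these 6 values.

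Pcdhb2 held 7.51, 7.93 and 5.97 CPM with NMDA and 8.83, 8.51 and 11.5 CPM in controls. The groups did not overlap, but the pair of replicate 3 differed by -0.89 on the log2 scale and the others by only -0.22 and -0.09. Its fitted value was -0.43 ± 0.18 (SE; adjusted p = 0.33 without and 0.0688 with the block, edgeR). Pcdhb15 was lower in level, at 2.82, 1.93 and 2.19 CPM with NMDA and 3.47, 3.06 and 2.80 CPM in controls. There NMDA replicate 1 reached into the control range, and the fitted value was -0.43 ± 0.24 (adjusted p = 0.452 and 0.174 with the block).

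Pcdhb19 gave the most reads of any β gene. It held 23.9, 23.1 and 20.0 CPM with NMDA and 25.7, 25.5 and 24.6 CPM in controls. Every control lay above every NMDA library, and the fitted value was -0.18 ± 0.11 (adjusted p = 0.486 and 0.191 with the block). Pcdhb12 held 3.76, 3.91 and 2.88 CPM with NMDA and 4.50, 4.67 and 3.96 CPM in controls, again without overlap, and its fitted value was -0.32 ± 0.20 (adjusted p = 0.524 and 0.238).

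The 2 β genes that were higher in every pair lie side by side. Pcdhb17 held 14.7, 15.8 and 17.4 CPM with NMDA and 13.1, 15.1 and 16.4 CPM in controls, and Pcdhb18 held 13.7, 13.8 and 16.7 CPM with NMDA and 9.86, 13.2 and 16.6 CPM in controls. The groups overlapped in both, and the fitted values were 0.10 ± 0.13 and 0.16 ± 0.19 (adjusted p = 0.776 and 0.748). Their outer neighbours had fitted values below 0: Pcdhb16 lies directly upstream of Pcdhb17, and Pcdhb19 directly downstream of Pcdhb18. The remaining 12 β genes (Pcdhb3 to Pcdhb6, Pcdhb8, Pcdhb10, Pcdhb11, Pcdhb13, Pcdhb14, Pcdhb21, Pcdhb22 and the gene Pcdhb1 described above) had overlapping groups. Their adjusted p-values in edgeR were at least 0.526 without the block and at least 0.255 with it, both lowest for Pcdhb1.

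**Figure D3:**
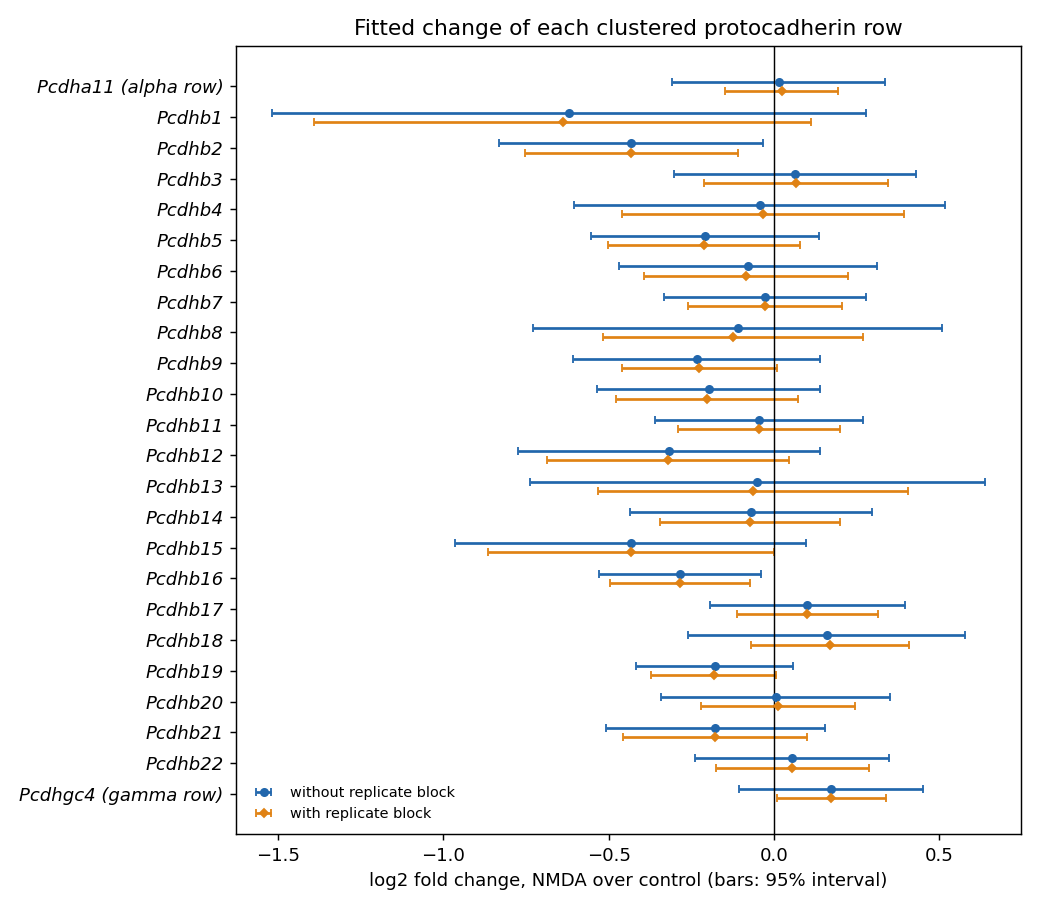
Fitted log2 fold change, NMDA over control, of the 24 rows in chromosomal order, with 95% intervals from edgeR without (blue circles) and with the replicate block (orange diamonds). Without the block only the intervals of Pcdhb2 and Pcdhb16 leave out 0; with it those of Pcdhb2, Pcdhb15 and Pcdhb16 do so below 0 and that of the γ row above 0, and none of the 24 has an adjusted p below 0.05.

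The β genes resemble each other in sequence to varying degrees, which bears on their counts. Each has 1 merged exon in M21, with a coding length of 2316 to 2487 bases (median 2388). Over the 231 pairs the coding identity ran from 59.1% to 89.7%, with a median of 74.8%. Pcdhb1 stood apart, at most 62.3% identical to another β gene (Pcdhb2), and the 210 pairs without it ran from 71.9% to 89.7%. The 9 neighbouring genes from Pcdhb4 to Pcdhb12 each had a β gene at least 85% identical to them. The closest pairs were Pcdhb7 with Pcdhb9 and Pcdhb6 with Pcdhb8, both at 89.7%.

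Even so, few stretches of 50 or 75 bases, lengths chosen here, were identical between genes. Of all windows of 75 bases in a β transcript, 0% to 8.96% (median 1.23%) also occurred in the transcript of another gene, and of windows of 50 bases 0% to 11.99% (median 4.46%). The highest shares were those of Pcdhb21 (8.96%) and Pcdhb22 (6.06%), whose exons overlap by 455 bases on the same strand. HTSeq by default discards reads in such an overlap, so both levels per kilobase were set on the bases that are not shared. For the 9 most similar genes reads with mismatches may be placed on the wrong gene.

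**Figure D4:**
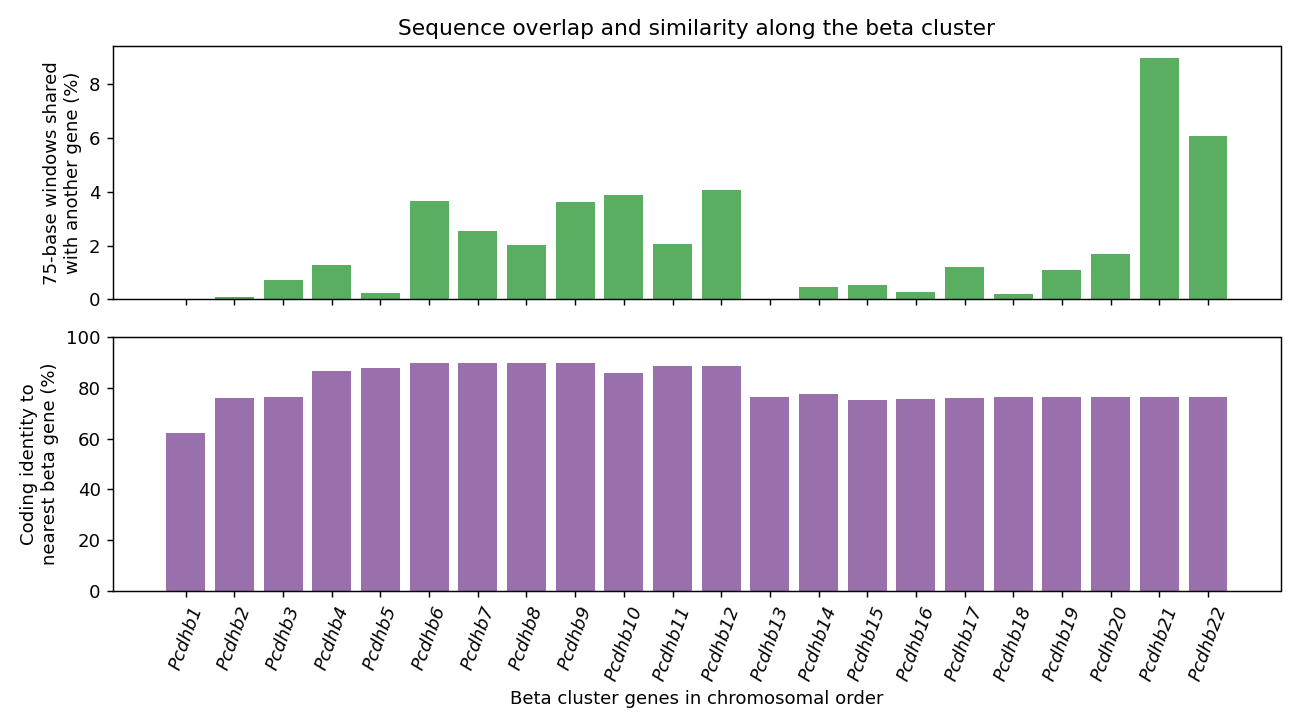
Share of 75-base transcript windows found in another gene's transcript (top, percent) and coding identity to the most similar β gene (bottom, percent) for each β gene in chromosomal order. The highest share is 8.96%, at Pcdhb21, and identities of at least 85% form a run from Pcdhb4 to Pcdhb12.

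The 9 genes of that run had a median level of 2.17 CPM per kb and a median fitted log2 fold change of -0.11, with all 9 below 0. The other 13 had medians of 2.61 CPM per kb and -0.07, with 8 of 13 below 0. Of all genes tested 50.9% were below 0. In the run Pcdhb4, Pcdhb6, Pcdhb7, Pcdhb8 and Pcdhb11 changed sign in a fit that left out 1 library. Among the other 13, Pcdhb3, Pcdhb13, Pcdhb14, Pcdhb18, Pcdhb20 and Pcdhb22 did so. Over the 22 genes the fitted value ran with exonic length (Spearman rho 0.57) and against GC content (rho -0.57), and both features come from the same transcripts. It was less related to the order on the chromosome (rho 0.30) and to the level (rho 0.22). These coefficients describe 22 genes measured in the same libraries and are not tests. With offsets for GC content and length together with the replicate block, 17 β genes were below 0 and 0 members passed an adjusted p of 0.05. These 17 were not all the same genes, as Pcdhb14 stood at 0.036 and Pcdhb20 at -0.0052. The coefficients were not computed again after the offsets, so whether the offsets lessened the relation to length and GC content was not tested.

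The rest of the protocadherin superfamily was set beside the clusters. Of 15 genes (nonclustered protocadherins and the related Celsr genes), 14 were tested. None passed in edgeR without the block (3 at an unadjusted p below 0.05, beside 13.7% of all genes) or in DESeq2 without it. With the block 1 rose and 5 fell, beside 5.65% and 8.35% of all genes in those directions. Celsr3, a seven-pass cadherin of axon guidance, held 69.1, 49.6 and 37.3 CPM with NMDA and 129, 82.6 and 72.7 CPM in controls. NMDA was lower in every pair and the groups did not overlap, with a log2 fold change of -0.87 ± 0.07 within pairs (adjusted p = 1.29e-07) and an adjusted p of 0.253 without the block. Pcdh8, known as arcadlin and induced by neuronal activity, held 46.5, 49.5 and 64.3 CPM with NMDA and 29.3, 35.7 and 54.2 CPM in controls. It rose by 0.45 ± 0.08 within pairs (adjusted p = 0.00125, and 0.439 without the block), with groups that overlapped. Pcdh9, Pcdh20, Pcdh11x and Pcdh1 fell within pairs, by log2 values of -0.34, -0.52, -0.24 and -0.26. The median of the 14 was -0.11.

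Genes that act on the choice of protocadherin promoters were tested next, and all 21 were measured. None passed in edgeR without the block, where 5 had an unadjusted p below 0.05, beside 13.7% of all genes. With the block 2 rose and 5 fell, beside 5.65% and 8.35% of all genes. Tet1, an enzyme that oxidises methylated cytosine, held 45.0, 43.7 and 45.7 CPM with NMDA and 60.3, 56.0 and 56.3 CPM in controls. The groups lay well apart, and the log2 fold change was -0.36 ± 0.07 within pairs (adjusted p = 0.00254, and 0.129 without the block). It was the only gene of this list that DESeq2 without a block called. Rest, the repressor of neuronal genes in other cells, rose by 0.48 within pairs, and so did the cohesin subunit gene Smc1a, by 0.25. Mau2, which loads cohesin with Nipbl, fell within pairs (-0.28), as did Pds5a, a cohesin regulator (-0.22), and Tet2 (-0.24). Ctcf itself, named after its values were seen, averaged 98.5 ± 3.07 CPM with NMDA and 93.5 ± 3.82 CPM in controls (SD, n = 3 each), and its log2 fold change was 0.07 ± 0.08 (adjusted p = 0.706).

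Of 25 genes for partners of protocadherin signalling, none passed without the block in edgeR or in DESeq2. In edgeR 1 had an unadjusted p below 0.05, beside 13.7% of all genes. With the block 1 rose and 1 fell, beside 5.65% and 8.35% of all genes in those directions. Wasf1, a subunit of the WAVE actin complex, rose (0.29) and Ptk2b, the kinase PYK2 that γ-protocadherins inhibit, fell (-0.29). Of 20 classical cadherins and catenins 19 were tested. None passed without the block in edgeR (1 at an unadjusted p below 0.05, beside 13.7% of all genes) or in DESeq2. With the block 2 rose, beside 5.65% of all genes, namely Ctnnd2 (δ-catenin, 0.29) and Ctnna1 (α-catenin, 0.27). In the other direction 0 fell, beside 8.35%. The medians of these lists were 0.01 and -0.01.

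The genes around the clusters were taken within 500 kb, from 36430184 to 38341873. Of 42 such genes 27 were tested, and no gene passed in edgeR without the block, where 6 had an unadjusted p below 0.05, beside 13.7% of all genes. With the block 3 rose, beside 5.65% of all genes, and 3 fell, beside 8.35%. The growth factor gene Hbegf rose by 0.72 and Zmat2 by 0.40 within pairs, both also called by DESeq2 without a block, and Hars rose by 0.22. Hars2, the mitochondrial histidyl-tRNA synthetase gene, fell (-0.43), as did Ankhd1 (-0.30) and Pcdh1. Taf7, a basal transcription factor gene between the β and γ clusters, averaged 38.8 ± 1.84 CPM with NMDA and 32.8 ± 4.35 CPM in controls (SD, n = 3 each), with an adjusted p of 0.0513 within pairs. It and Diaph1, downstream of the γ cluster at a log2 fold change of -0.06, were named for their position after their values were seen.

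Markers of cell types other than neurons were detected, and the summed levels of some of these sets were higher with NMDA in all 3 pairs. Excitatory neuron markers summed to 577 to 688 CPM with NMDA and 585 to 699 CPM in controls, and inhibitory markers to 613 to 659 and 564 to 597 CPM. The 10 astrocyte markers summed to 2368 to 3606 CPM with NMDA and 2196 to 2864 CPM in controls. With the block 7 of the 10 astrocyte markers rose, beside 5.65% of all genes, as did 3 of 7 progenitor, 2 of 7 tested fibroblast and mural, 2 of 10 excitatory and 1 of 10 inhibitory markers. Mog, of the oligodendrocyte list, fell. Without the block no marker passed. Progenitor markers summed to 869 to 1569 CPM with NMDA and 787 to 1176 CPM in controls, and fibroblast and mural markers to 142 to 259 and 112 to 151 CPM. Oligodendrocyte precursor markers summed to 617 to 878 and 506 to 886 CPM, and oligodendrocyte markers to 88.3 to 224 and 78.6 to 249 CPM. Microglial markers were near the floor, at 3.96 to 4.74 and 3.32 to 5.06 CPM, and endothelial markers at 14.0 to 23.9 and 12.3 to 18.01 CPM, with Cldn5 at 0 in all 6 libraries. The inhibitory markers were the only set of the 9 whose summed levels did not overlap between the groups. The part of these marker levels in the protocadherin values was not tested. In RNA from whole cultures, fewer cells of a type and less RNA per cell cannot be told apart.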

How the data were processed

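The authors deposited raw read counts per gene. Trimmomatic, TopHat, HTSeq, mm10 and GRCm38.p6 are named in the submitters' processing notes. No source used here gives their versions, the annotation or the strand setting. Per the labels' protocols, libraries were stranded, poly(A)-selected and sequenced from one end. Members and gene lists were chosen with earlier results of these data known. Genes were tested with edgeR 4.0.16 in R 4.3.3 (default filter with minimum count 10 and minimum total 15, TMM scaling, robust quasi-likelihood F tests, Benjamini-Hochberg adjustment over 14642 genes, threshold 0.05), with group as the only term. CPM were computed here from the counts with TMM factors, and SE is the log2 fold change divided by the root of F. Pair differences of single genes used log2(CPM + 0.5). The fit was tested on simulated data. Named were, per cluster, the 3 members with the smallest p and the 3 highest per kilobase, members past 0.05, and of each other list those that passed in a fit; a listed gene is not reported here. Pcdhb1, Pcdhb12 and Pcdhb17 to Pcdhb19 were chosen after their values were seen. Libraries of the same replicate number had correlated deviations from their group's mean (Pearson 0.53, 0.38 and 0.48), against -0.40 to -0.03 for other combinations. The numbers were therefore taken to pair the libraries. This pairing comes from the data, as no label explains a number. Exon lengths and similarity came from GENCODE M21 on GRCm38 and Biopython 1.88, and RefSeq supplied isoform starts.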

Additional observations from a re-analysis of the deposited data

How the results depend on the processing

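No clustered protocadherin passed an adjusted p of 0.05 in any setting. Genes called over the whole table numbered 63 with the default fit, 306 with DESeq2 1.42.0, 260 without a low-count filter, 2051 with the replicate block, 2000 with the block plus offsets for GC content and length, and 963 with DESeq2 and the block, the last chosen after seeing the data. Leaving out 1 library gave 20 to 146. Leaving out 1 library also moved the γ row's log2 ratio between 0.088 and 0.28 and turned the sign of the α row (-0.10 to 0.18) and of Pcdhb3 (-0.061 to 0.22), Pcdhb4 (-0.17 to 0.25), Pcdhb6 (-0.22 to 0.018), Pcdhb7 (-0.12 to 0.10), Pcdhb8 (-0.41 to 0.11), Pcdhb11 (-0.16 to 0.028), Pcdhb13 (-0.26 to 0.19), Pcdhb14 (-0.16 to 0.037), Pcdhb18 (-0.013 to 0.36), Pcdhb20 (-0.15 to 0.13) and Pcdhb22 (-0.036 to 0.12). With the block and the offsets Pcdhb14 stood at 0.036 and Pcdhb20 at -0.0052; the cause was not tested. A filter at 1 CPM dropped Pcdhb1. The replicate block changed no member's call. It lowered the biological coefficient of variation to 7.06%, against 13.04%, and left 2 residual degrees of freedom in place of 4. The α row rests on a mean of 5563 reads and the median β gene on 163, so counting noise limits the β genes more.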
